A study of Mus musculus with 16 samples.

Results

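Neurotrophin signalling and the granin proteins were followed in the medial prefrontal cortex (mPFC) through 9 genes, which were the neurotrophins Bdnf and Ntf3, the receptors Ntrk2, Ntrk3 and Sort1, and the secreted precursors Vgf, Scg2, Chga and Chgb. The members were chosen by gene symbol from the 26625 entries of the deposited gene table. All 9 were in the table and all 9 passed the filter on low counts, so each was among the 18826 genes tested. Bulk RNA of adult male C57BL/6 mice was read as full-length cDNA by Nanopore sequencing. The 3 Ctrl + Saline and 4 Ctrl + Morphine mice had received a control hairpin virus in the mPFC of both hemispheres, and the mice named Kdm7a-shRNA + Saline (5) and Kdm7a-shRNA + Morphine (4) a virus with a short hairpin RNA against Kdm7a, which encodes a histone lysine demethylase. Conditioned place preference was trained with saline alone or with morphine and saline on alternate days, and the tissue was taken on the seventh day of withdrawal after a second preference test. All mice thus carried a viral vector, were injected and were tested for preference. The hairpin was driven by a U6 promoter in an adeno-associated virus that also carried EGFP under a CMV promoter, and neither promoter is limited to a cell type. Which cells took up the virus is not known from these data. In bulk tissue, fewer cells of a type and less RNA per cell cannot be told apart.

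Neurotrophins are secreted growth factors made as longer precursors. BDNF binds the receptor tyrosine kinase TrkB, encoded by Ntrk2, and NT-3, encoded by Ntf3, binds mainly TrkC, encoded by Ntrk3. Sortilin, encoded by Sort1, binds precursor neurotrophins and sorts them into the regulated secretory pathway. Granins are acidic proteins that fill dense-core vesicles, from which neurons release peptides and BDNF. In the cortex BDNF is made mainly by excitatory neurons in response to activity, whereas TrkB is also made by astrocytes, mostly in a truncated form that lacks the kinase. Reads of all transcripts of a gene were summed in the values below, so full-length and truncated TrkB or TrkC transcripts cannot be told apart.

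Between 6596991 and 12418112 reads were counted per mouse. Levels are given as CPM (counts relative to the library total) after TMM normalization, called normalized CPM, mean ± SD with the number of mice. A gene was called changed with an adjusted p-value under 0.05 in edgeR's quasi-likelihood test and a fold change of at least 1.5. Kdm7a itself was 9.42 ± 0.353 normalized CPM (n = 3) in Ctrl + Saline, 7.72 ± 1.13 (n = 4) in Ctrl + Morphine, 5.55 ± 0.571 (n = 5) in Kdm7a-shRNA + Saline and 4.94 ± 1.53 (n = 4) in Kdm7a-shRNA + Morphine mice. It was lower with the Kdm7a-shRNA virus under saline, with a log2 fold change of -0.76 (SE 0.204, adjusted p = 0.0153), and had a log2 fold change of -0.67 (SE 0.206, adjusted p = 0.0506) under morphine. Over all genes, knockdown called 3151 under saline, of which 1398 were higher, and 1448 under morphine, of which 538 were higher. Without normalization factors 967 of 3309 and 394 of 1640 called genes were higher, and the median of all genes shifted by -0.13 and -0.11 on the log2 scale.

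The starts of transcription of 6 of the 9 genes were matched in RefSeq on GRCm38.p6, with 7 starts for Bdnf, 2 for Ntf3 and 1 each for Ntrk2, Scg2, Chga and Chgb. Ntrk3, Sort1 and Vgf had no match. Several of these genes are known to respond to cyclic AMP and to activity, so the windows from 250 bases before to 50 bases after each start were searched on both strands for the full cyclic AMP response element TGACGTCA and for its 5-letter core TGACG or CGTCA, which the full element contains. The full element was in the Scg2 and Chgb windows, 68 and 72 bases before the start. Of 32851 RefSeq promoter windows, 588 (1.79%) held it. The core alone was in the Chga window, 44 bases before the start, and in the window of 1 of the 7 Bdnf starts, the third along the chromosome, 35 bases before it. The core was in 20.8% of all windows. No match was in the windows of Ntrk2 and Ntf3. The 30 bases around each match are shown 5′ to 3′ on the gene's own strand, with the matched letters in capitals, because the same motif was present in front of genes that did and did not change. The 100 bases before the Ntrk2 start are shown as well, as Ntrk2 was the member with the lowest adjusted p-value.
Scg2, chr1:79440076-79440105, minus strand: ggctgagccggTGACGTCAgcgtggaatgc
Chgb, chr2:132781559-132781588, plus strand: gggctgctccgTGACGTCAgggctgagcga
Chga, chr12:102554885-102554914, plus strand: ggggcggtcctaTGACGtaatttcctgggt
Bdnf, chr2:109692389-109692418, plus strand: tatgacagctcaCGTCAaggcagcgtggag
Ntrk2, chr13:58806469-58806568, plus strand: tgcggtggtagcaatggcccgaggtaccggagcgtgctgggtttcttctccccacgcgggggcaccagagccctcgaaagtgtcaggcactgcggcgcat
In GENCODE vM21 the Chga and Ntrk2 windows lay outside the annotated gene and in no exon, the Bdnf window lay within the gene and in no exon, and the Scg2 and Chgb windows fell in an exon of a longer annotated transcript of the gene.

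Among the 9 genes, 3 were called in at least 1 of the comparisons between groups. Ntrk2 was higher and Ntrk3 lower with Kdm7a knockdown under saline, and Chga was lower with Kdm7a knockdown under morphine. No member was called for morphine under either virus. The plot by mouse shows where the groups separate.

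**Figure D1:**
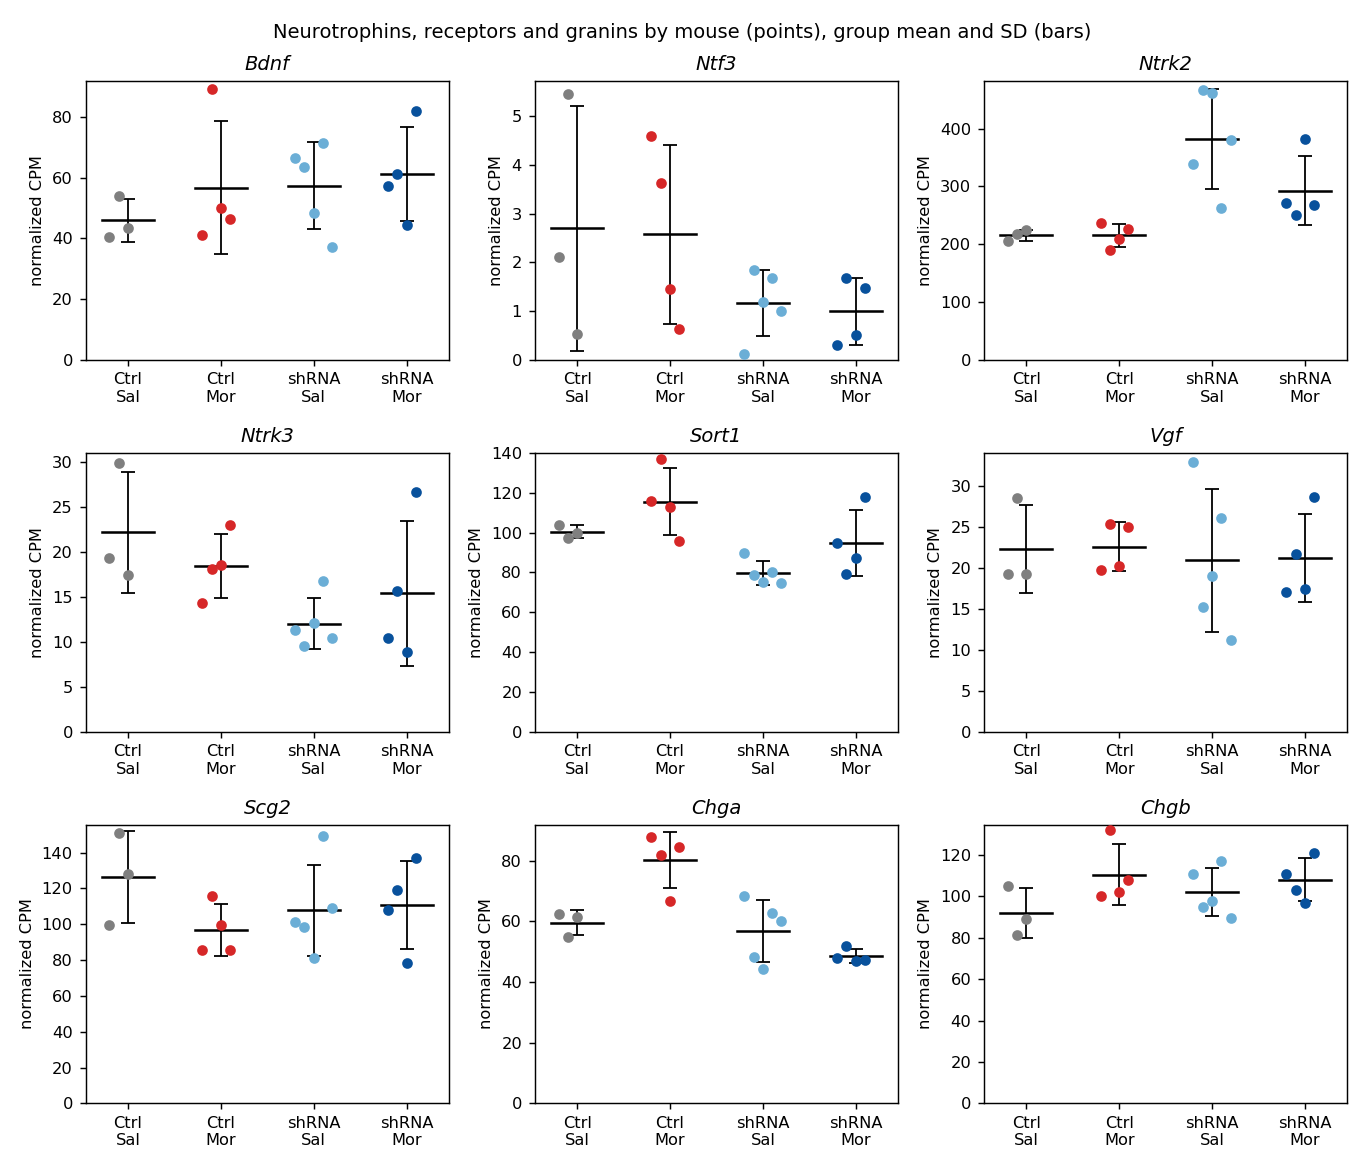
Normalized CPM (linear axis from 0) of the 9 genes in each of the 16 mice by group (Sal, saline; Mor, morphine; shRNA, Kdm7a-shRNA virus). Points are mice, and bars are the group mean and SD; all 9 Kdm7a-shRNA mice lay above all 7 Ctrl mice for Ntrk2, and the mean of Chga was highest in the Ctrl + Morphine group.

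Of the ligands, Bdnf (ENSMUSG00000048482, GRCm38 chromosome 2, 109674700 to 109727007, plus strand) encodes the main activity-dependent neurotrophin of the cortex. Its level was 40.4, 54 and 43.4 normalized CPM in the Ctrl + Saline mice and 41.2, 89.1, 50 and 46.3 in the Ctrl + Morphine mice. In the Kdm7a-shRNA mice it was 66.4, 63.6, 48.2, 71.5 and 37 under saline and 57.2, 61.1, 44.5 and 81.9 under morphine. All 4 groups overlapped, and replicate 2 of the Ctrl + Morphine group was the highest mouse. The group means ran from 46 ± 7.1 (n = 3) in Ctrl + Saline over 56.7 ± 21.9 (n = 4) in Ctrl + Morphine and 57.4 ± 14.3 (n = 5) in Kdm7a-shRNA + Saline to 61.2 ± 15.5 (n = 4) in Kdm7a-shRNA + Morphine, and no neighbours in this order were apart. The log2 fold change of knockdown was 0.32 under saline (95% interval -0.22 to 0.85, adjusted p = 0.403) and 0.11 under morphine (-0.41 to 0.62, adjusted p = 0.825). Morphine under the control virus gave 0.30 (-0.26 to 0.86, adjusted p = 0.702), so an increase of 1.5-fold in Bdnf lay within the interval.

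Ntf3 (ENSMUSG00000049107, chromosome 6, 126101412 to 126166910, minus strand), which encodes NT-3, was close to the limit of detection, with 1 to 56 counts per mouse. It was 2.11, 5.46 and 0.53 normalized CPM in the Ctrl + Saline mice and 4.59, 3.63, 1.46 and 0.642 in the Ctrl + Morphine mice. The Kdm7a-shRNA mice had 0.115, 1.84, 1.18, 1.69 and 1.01 under saline and 0.306, 1.68, 0.516 and 1.48 under morphine. The 4 highest mice were Ctrl mice, yet every pair of groups overlapped. The log2 fold change of knockdown was -1.25 under saline (SE 0.69, adjusted p = 0.212) and -1.39 under morphine (SE 0.712, adjusted p = 0.233). Without replicate 2 of Ctrl + Saline, the mouse with 56 counts, the value under saline was -0.18 (adjusted p = 0.915). Averaged over both treatments it was -1.32 (SE 0.496), with an adjusted p of 0.0564, which was 0.0361 to 0.107 over 7 alternatives and 0.0254 to 0.315 over the fits with 1 mouse left out. It was under the threshold in 2 of the 7 and in 3 of the 16, and without replicate 2 of Ctrl + Saline the average was -0.78.

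Of the receptors, Ntrk2 (ENSMUSG00000055254, chromosome 13, 58806569 to 59133970, plus strand), the TrkB gene, separated the viruses. It was 205, 218 and 224 normalized CPM in the Ctrl + Saline mice and 236, 190, 209 and 227 in the Ctrl + Morphine mice. The Kdm7a-shRNA + Saline mice had 339, 467, 462, 262 and 381. The Kdm7a-shRNA + Morphine mice had 272, 250, 382 and 268. Every Kdm7a-shRNA mouse, with 250 to 467, was above every Ctrl mouse, with 190 to 236. Of all genes tested, 4.37% separated the 7 Ctrl from the 9 Kdm7a-shRNA mice in this way, and Ntrk2 was the only 1 of the 9 members to do so. The group means were 216 ± 9.66 (n = 3), 216 ± 20 (n = 4), 382 ± 86.2 (n = 5) and 293 ± 60.4 (n = 4) in the same order of groups, and the coefficient of variation was 4.48% and 9.27% in the Ctrl groups against 22.6% and 20.6% in the Kdm7a-shRNA groups.

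Under saline, Ntrk2 rose 1.77-fold with knockdown (log2 fold change 0.83, SE 0.173, adjusted p = 0.00399), a call that held in all 9 alternatives and in all 16 fits with 1 mouse left out. Of these alternatives, the adjusted p alone could not lose the call, since it dropped only the fold threshold. Under morphine the log2 fold change was 0.44 (SE 0.163, adjusted p = 0.0948), which was not called although the groups did not overlap. The difference between both effects was -0.38 (SE 0.235, adjusted p = 0.601). Averaged over saline and morphine, Ntrk2 was 1.55-fold higher with knockdown (log2 fold change 0.63, SE 0.119, adjusted p = 0.000829). This average stayed under the adjusted threshold in every fit but missed the fold of 1.5 without normalization factors (0.51), with the known genes only (0.57) and without replicate 3 of the Kdm7a-shRNA + Morphine group (0.56). Morphine under the control virus left Ntrk2 at a log2 fold change of 0.00 (95% interval -0.37 to 0.37), and morphine under knockdown gave -0.38 (SE 0.155, adjusted p = 0.698).

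Markers of microglia, and some of astrocytes, were also higher with knockdown. Among 7 microglia markers, 6 were called higher with knockdown under saline and 4 under morphine, with a median log2 fold change of 1.13 and 1.16 over the 7, against 0.02 and -0.01 over all genes tested. Their summed level was 677 to 817 normalized CPM in Ctrl + Saline, 377 to 797 in Ctrl + Morphine, 1080 to 3180 in Kdm7a-shRNA + Saline and 705 to 2950 in Kdm7a-shRNA + Morphine mice. The Kdm7a-shRNA + Morphine mouse with the highest Ntrk2 level, 382, also had that group's highest microglia sum. In the Kdm7a-shRNA + Saline group, the mouse with the lowest Ntrk2 level, 262, had that group's lowest microglia sum. The other ends did not match. The highest Ntrk2 level with knockdown under saline, 467, came with a sum of 2276, below the 3178 of another mouse. The lowest with knockdown under morphine, 250, came with 1139, above the 704.9 of another mouse. In Ctrl + Morphine both ends matched, while in Ctrl + Saline the highest sum, 817.1, came with the lowest Ntrk2 level, 205. Among 8 astrocyte markers, Gfap, at a log2 fold change of 1.36 (adjusted p = 0.0485), and Aldh1l1, with 1.11 (adjusted p = 0.0338), were called higher under saline. Of the other astrocyte markers, Slc1a2 was at -0.36 (adjusted p = 0.0726), Aldoc at -0.22 (adjusted p = 0.159) and Gja1 at -0.04 (adjusted p = 0.895) in that comparison, and 5 of the 8 had a positive log2 fold change. Under morphine all 8 had a positive log2 fold change, with a median of 0.389. By edgeR none was called there, 3 had an unadjusted p under 0.05 and DESeq2 called 2. Slc1a3, at 0.57 under morphine (adjusted p = 0.0341), missed only the fold threshold. The astrocyte sum, of which Aldoc alone made 7210 to 9570 in the group means, overlapped between all groups except that of Ctrl + Morphine (7560 to 9230) with that of Ctrl + Saline (9350 to 11800), and was 8790 to 10500 with knockdown under saline and 8470 to 10400 with knockdown under morphine. Other lists held calls under saline, where 16.7% of all genes were called. Of 4 endothelial markers, 3 were called higher, with sums of 62.5 to 92.9 against 31.1 to 61.1 in Ctrl + Saline mice. Of 5 GABA neuron markers, 2 were called higher and 2 lower, and of 4 oligodendrocyte precursor markers, 1 higher. Of 6 oligodendrocyte markers 0 were called by edgeR or DESeq2. Under morphine 1 endothelial and 1 GABA neuron marker were called higher. No marker gene of these lists was at 0 counts in any mouse, and the part of these cell types in the Ntrk2 result was not tested.

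**Figure D2:**
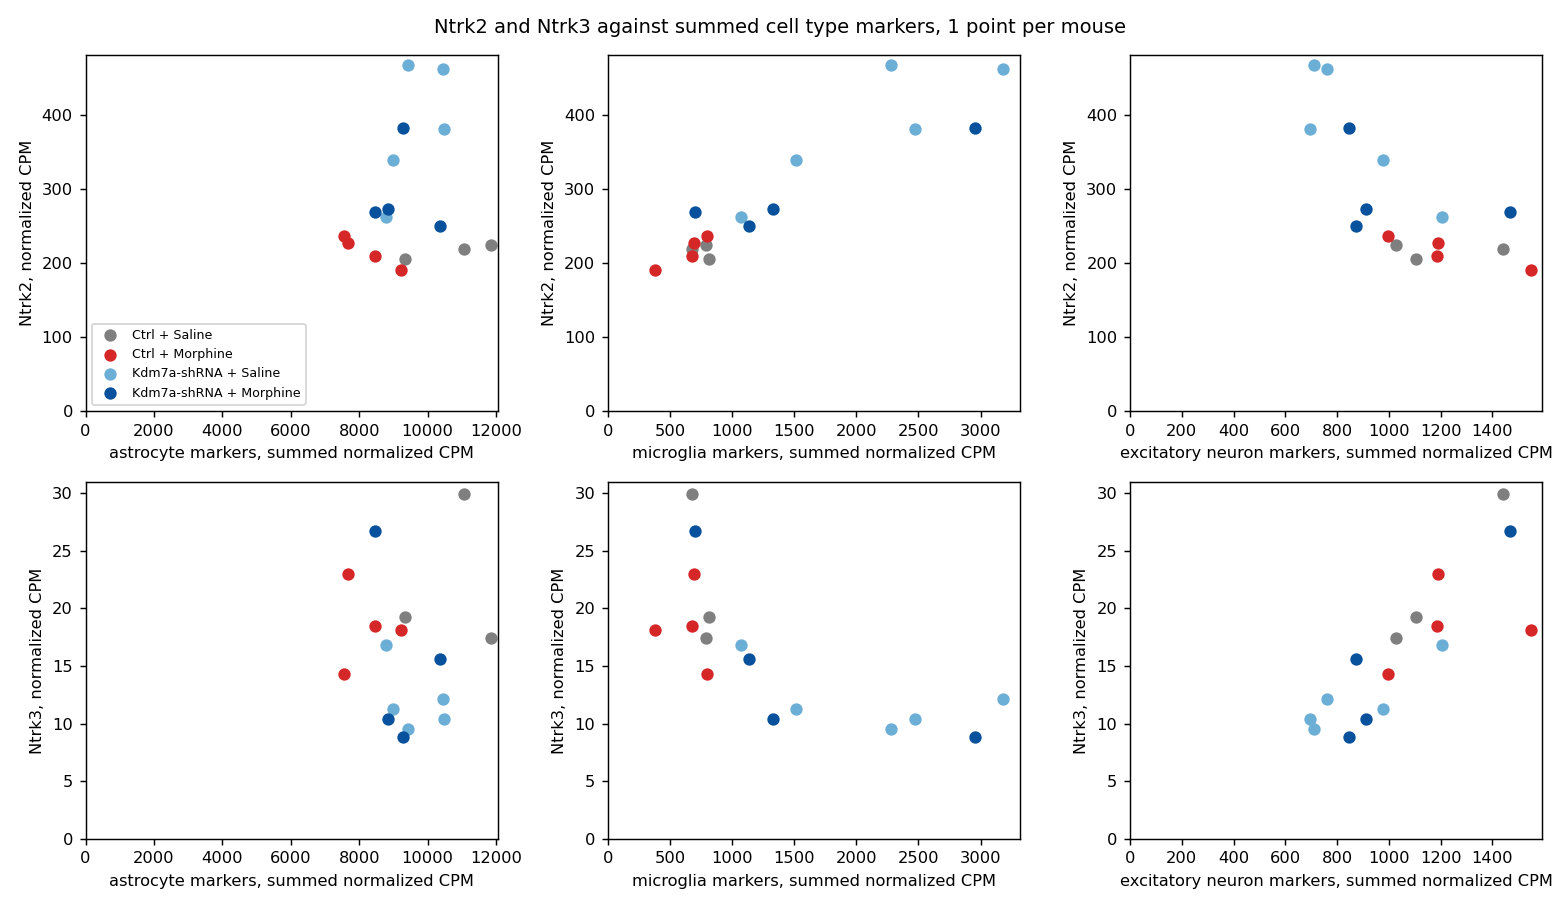
Normalized CPM of Ntrk2 (top) and Ntrk3 (bottom) against the summed normalized CPM of astrocyte, microglia and excitatory neuron markers, 1 point per mouse, coloured by group. Ntrk2 was highest in mice with microglia sums above 1500, and Ntrk3 was under 13 in each of those mice, all of which carried the Kdm7a-shRNA virus. Replicate 1 of Kdm7a-shRNA + Morphine, with a sum of 1328, also had a low Ntrk3 level, 10.4.

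Ntrk3 (ENSMUSG00000059146, chromosome 7, 78175959 to 78738012, minus strand), the TrkC gene, moved the other way. It was 19.3, 29.9 and 17.4 normalized CPM in the Ctrl + Saline mice and 14.3, 18.1, 18.5 and 23 in the Ctrl + Morphine mice. The Kdm7a-shRNA + Saline mice had 11.3, 9.56, 12.1, 16.8 and 10.4, and the Kdm7a-shRNA + Morphine mice 10.4, 15.6, 8.85 and 26.7. All 5 Kdm7a-shRNA + Saline mice were below the 3 Ctrl + Saline mice, while under morphine the groups overlapped and replicate 4 of the Kdm7a-shRNA + Morphine group was the second highest of all mice. From 22.2 ± 6.73 (n = 3) in Ctrl + Saline to 12 ± 2.82 (n = 5) in Kdm7a-shRNA + Saline, Ntrk3 fell 1.85-fold (log2 fold change -0.89, SE 0.291, adjusted p = 0.0384). This call was lost in 6 of 16 fits with 1 mouse left out, with adjusted p-values of 0.0539 to 0.236. These were the fits without replicate 2 or 3 of Ctrl + Saline, where the log2 fold change was -0.61 and -1.06, and without replicate 1, 2, 3 or 5 of Kdm7a-shRNA + Saline, where it was -0.82 to -0.89. All 6 thus left out 1 of the 3 Ctrl + Saline or 5 Kdm7a-shRNA + Saline mice compared. The mice of the morphine groups enter this comparison only through the shared fit. Under morphine the means were 18.5 ± 3.57 (n = 4) and 15.4 ± 8.07 (n = 4), with a log2 fold change of -0.27 (SE 0.286, adjusted p = 0.6). The difference between both knockdown effects was 0.62 (SE 0.41, adjusted p = 0.636). The average knockdown effect was -0.58 (SE 0.205, adjusted p = 0.0419), just short of a 1.5-fold change. It was called in 5 of 8 alternatives, among them library size only (-0.70, adjusted p = 0.0182), at least 10 counts in every mouse (-0.61, adjusted p = 0.036) and the known genes only (-0.64, adjusted p = 0.0379). Another of the 5 was the adjusted p alone, where the call follows from the main fit because only the fold threshold was dropped. It was also called in 5 of 16 fits with 1 mouse left out, with its strongest value of -0.78 without replicate 4 of Kdm7a-shRNA + Morphine, and its weakest value over those fits was -0.44.

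The summed level of 5 excitatory neuron markers was 1030 to 1440 normalized CPM in Ctrl + Saline and 696 to 1210 in Kdm7a-shRNA + Saline mice. It was 998 to 1550 in Ctrl + Morphine and 845 to 1470 in Kdm7a-shRNA + Morphine mice. Replicate 2 of Ctrl + Saline and replicate 4 of Kdm7a-shRNA + Morphine, which had the 2 highest Ntrk3 levels, had sums of 1441 and 1467. The highest sum of all mice, 1550, was in replicate 2 of Ctrl + Morphine, which had an Ntrk3 level of 18.1. By edgeR none of the 5 was called under saline, where 3 had an unadjusted p under 0.05 and DESeq2 called 2. The part of these cells in the Ntrk3 result was not tested.

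Sort1 (ENSMUSG00000068747, chromosome 3, 108284082 to 108361511, plus strand) encodes the sorting receptor sortilin. It was 104, 97.5 and 99.9 normalized CPM in the Ctrl + Saline mice and 116, 137, 113 and 96 in the Ctrl + Morphine mice. The Kdm7a-shRNA + Saline mice had 90, 78.5, 75.4, 80.2 and 74.9, and the Kdm7a-shRNA + Morphine mice 95, 79, 87.3 and 118. The saline groups did not overlap, and the lowest Ctrl mouse was above 8 of the 9 that carried the Kdm7a-shRNA virus, with replicate 4 of Kdm7a-shRNA + Morphine the exception. The change was small. The log2 fold change of knockdown was -0.33 under saline (SE 0.131, adjusted p = 0.0806) and -0.28 under morphine (SE 0.128, adjusted p = 0.171), and their average was -0.31 (SE 0.0915, adjusted p = 0.0181), a 1.24-fold lower level that was under the fold threshold. Its adjusted p was 0.00237 to 0.0423 over the other settings.

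Of the granins, Chga (ENSMUSG00000021194, chromosome 12, 102554969 to 102565028, plus strand), the chromogranin A gene, was the only 1 of the 9 members called with knockdown under morphine. It was 62.4, 54.8 and 61.6 normalized CPM in the Ctrl + Saline mice. The Ctrl + Morphine mice had 87.9, 81.8, 66.7 and 84.6. The Kdm7a-shRNA + Saline mice had 68.5, 48.4, 44.2, 62.7 and 60.1, and the Kdm7a-shRNA + Morphine mice 48, 51.8, 46.8 and 47.4. The 4 Kdm7a-shRNA + Morphine mice formed the tightest group, with a coefficient of variation of 4.65%, and lay below all Ctrl mice of either treatment. The Ctrl + Morphine mice lay above all Ctrl + Saline mice.

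From 80.3 ± 9.36 (n = 4) in Ctrl + Morphine to 48.5 ± 2.25 (n = 4) in Kdm7a-shRNA + Morphine mice, Chga fell 1.66-fold (log2 fold change -0.73, SE 0.134, adjusted p = 0.00512). The call held in all 9 alternatives, with adjusted p-values of 7.14e-05 to 0.0159, and in all 16 fits with 1 mouse left out. As for Ntrk2, the adjusted p alone could not lose it. Under saline the means were 59.6 ± 4.14 (n = 3) and 56.8 ± 10.1 (n = 5), with a log2 fold change of -0.07 (95% interval -0.36 to 0.22, adjusted p = 0.761). Morphine under the control virus gave 0.43 (SE 0.145), with an unadjusted p of 0.00846 and an adjusted p of 0.244, and morphine under knockdown -0.23 (SE 0.128, adjusted p = 0.746). The comparisons of knockdown and of morphine share the Ctrl + Morphine mice. Knockdown under morphine differed from knockdown under saline by -0.66 (SE 0.194, 95% interval -1.07 to -0.25), with an unadjusted p of 0.00324 that did not pass the adjustment (0.187, and 0.084 to 0.279 over the other settings).

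The summed level of 5 general neuron markers was 2150 to 3180 normalized CPM in Ctrl + Morphine and 1990 to 3150 in Kdm7a-shRNA + Morphine mice. By edgeR none of these 5 was called in that comparison, none had an unadjusted p under 0.05 (0 of 5) and DESeq2 called 0. The 5 excitatory neuron markers were all lower there, with a median log2 fold change of -0.365. Of those, 1 had an unadjusted p under 0.05 and 0 were called by edgeR or DESeq2. The sum of 6 striatal neuron markers was 117 to 146 in Ctrl + Morphine, above the 68.6 to 90.8 of Ctrl + Saline and the 73.9 to 108 of Kdm7a-shRNA + Morphine mice, and was 60.7 to 155 in Kdm7a-shRNA + Saline mice. Most of this difference came from Ppp1r1b, at 51.3 ± 11.5 (n = 3) in Ctrl + Saline and 103 ± 14.4 (n = 4) in Ctrl + Morphine mice, while Drd2, Adora2a and Rgs9 each had a log2 fold change of -0.07 with morphine under the control virus. With knockdown under morphine Ppp1r1b was at -0.60, Drd2 at 0.73 and Adora2a at 0.72, and none of the 6 was called by edgeR or DESeq2, with 1 at an unadjusted p under 0.05. In the Kdm7a-shRNA + Saline mice, striatal sums of 74.34, 155.3, 60.67, 88.75 and 139.5 came with Chga levels of 68.5, 48.4, 44.2, 62.7 and 60.1. The part of these cells in the Chga values was not tested.

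Chgb (ENSMUSG00000027350, chromosome 2, 132781278 to 132795079, plus strand) encodes chromogranin B. It was 105, 81.3 and 89.1 normalized CPM in Ctrl + Saline and 100, 132, 102 and 108 in Ctrl + Morphine mice. The Kdm7a-shRNA mice had 111, 95, 97.5, 117 and 89.4 under saline and 111, 103, 96.9 and 121 under morphine. All groups overlapped. The log2 fold change of knockdown was -0.04 under morphine (95% interval -0.30 to 0.22, adjusted p = 0.886), an interval that did not reach the 1.66-fold change of Chga, and 0.16 under saline (-0.11 to 0.43, adjusted p = 0.412). Morphine under the control virus gave 0.27 (SE 0.134, adjusted p = 0.439).

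Scg2 (ENSMUSG00000050711, chromosome 1, 79434669 to 79440120, minus strand) encodes secretogranin II, the precursor of the peptide secretoneurin. Its level was 99.8, 151 and 128 normalized CPM in Ctrl + Saline and 85.4, 116, 99.7 and 85.8 in Ctrl + Morphine mice. With the Kdm7a-shRNA virus it was 101, 98.6, 80.9, 149 and 109 under saline and 108, 119, 78.4 and 137 under morphine. In 3 of the 4 Ctrl + Morphine mice Scg2 was below the lowest Ctrl + Saline mouse, opposite in direction to Chga, with a log2 fold change of -0.39 (SE 0.204, adjusted p = 0.479). Knockdown gave -0.24 under saline (SE 0.195, adjusted p = 0.416) and 0.19 under morphine (SE 0.19, adjusted p = 0.57), and the difference of both was 0.43 (SE 0.272, adjusted p = 0.62).

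Vgf (ENSMUSG00000037428, chromosome 5, 137026392 to 137033351, plus strand), whose product is a secreted peptide precursor induced by neurotrophins, had the closest group means. They were 22.3 ± 5.37 (n = 3) in Ctrl + Saline, 22.5 ± 3.03 (n = 4) in Ctrl + Morphine, 20.8 ± 8.66 (n = 5) in Kdm7a-shRNA + Saline and 21.2 ± 5.39 (n = 4) in Kdm7a-shRNA + Morphine mice. Single mice ran from 11.2 to 32.9, and both extremes were Kdm7a-shRNA + Saline mice. The log2 fold changes lay between -0.10 and 0.02 in the 4 comparisons, with adjusted p-values of 0.822 to 0.992. The 95% intervals reached -0.68 and 0.61.

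**Figure D3:**
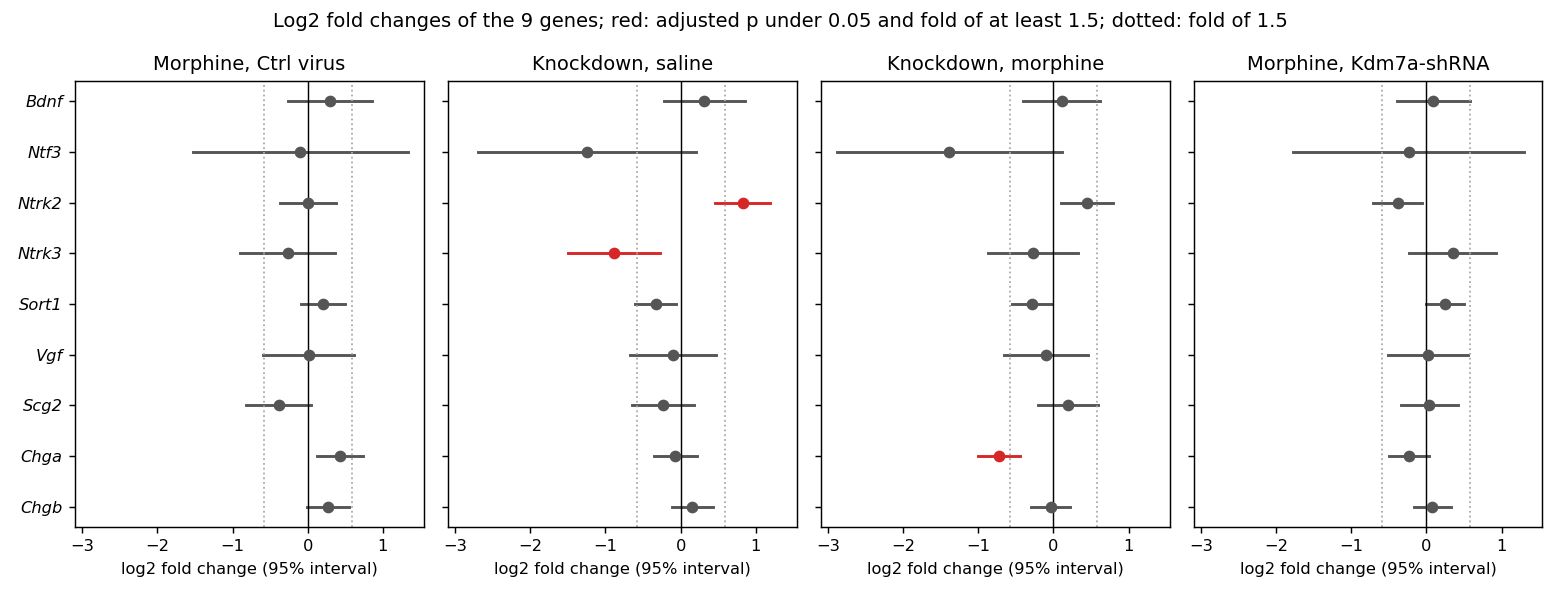
Log2 fold change of each gene with its 95% interval in the 4 comparisons of groups. Red marks the 3 calls, Ntrk2 (0.83) and Ntrk3 (-0.89) for knockdown under saline and Chga (-0.73) for knockdown under morphine; dotted lines mark a fold of 1.5.

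Counted over the members, knockdown under saline called 2 of 9 and knockdown under morphine 1 of 9, where 16.7% and 7.69% of all genes tested were called. The groups did not overlap for 3 of 9 members under saline (Ntrk2, Ntrk3 and Sort1) and for 2 of 9 under morphine (Ntrk2 and Chga), where 23.7% and 13.9% of all genes did not overlap. The average knockdown effect called 1 of 9 members against 17.6% of all genes, and by the adjusted p-value alone 4 of 9 (Ntrk2 higher, Ntrk3, Sort1 and Chga lower) against 27.6%. No result about the 9 genes as a group was read from these shares. The median log2 fold change of the 9 was -0.10 under saline and -0.09 under morphine, against 0.02 and -0.01 over all genes.

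For morphine under the control virus, edgeR called 0 of 9 members and 0% of all genes, DESeq2 called 0 of 9 members and 190 genes, and at an unadjusted p under 0.05 there were 1 member (Chga) and 2205 genes. Chga was also the 1 member whose groups did not overlap there, against 12.4% of all genes. Morphine under knockdown called 0 of 9 members by edgeR and by DESeq2, with 1 member (Ntrk2) at an unadjusted p under 0.05 and 0.00531% of all genes called. The interaction called 0 of 9 by both tools, with 1 member (Chga) at an unadjusted p under 0.05 and 0.085% of all genes called.

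The other genes of neurotrophin signalling were read from a list of 41 without the members, of which 38 were tested. Knockdown under saline called 4 of the 38 higher and 0 lower, where 16.7% of all genes were called, and by the adjusted p-value alone 4 were higher and 2 lower. All 4 called genes encode proteins that act inside the cell downstream of Trk receptors, as do most genes of the list by its choice. They were the adaptor genes Shc1, from 5.57 ± 2.05 (n = 3) to 13.9 ± 4.99 (n = 5) normalized CPM (log2 fold change 1.31, SE 0.37, adjusted p = 0.0198), and Sh2b2, with 1.67 (SE 0.479, adjusted p = 0.0212), the MAP kinase kinase gene Map2k2, with 0.74 (SE 0.217, adjusted p = 0.0236), and the phosphoinositide 3-kinase subunit gene Pik3r2, with 0.72 (SE 0.235, adjusted p = 0.039). Under morphine the ribosomal S6 kinase gene Rps6ka2 alone was called, with a log2 fold change of 0.83 (SE 0.225, adjusted p = 0.0281). The list's median log2 fold change was -0.02 under saline and -0.09 under morphine. For morphine under the control virus edgeR and DESeq2 called 0 of 38, and 4 had an unadjusted p under 0.05.

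Among 16 tested genes of propeptide processing, 6 were called higher and 1 lower with knockdown under saline, where 16.7% of all genes were called, and the list's median was 0.06. The gene of the lysosomal protease cathepsin L, Ctsl, rose from 329 ± 48.5 (n = 3) to 908 ± 332 (n = 5) normalized CPM (log2 fold change 1.46, SE 0.33, adjusted p = 0.00598), and Cpe, the gene of carboxypeptidase E, which trims peptide hormones and neuropeptides, from 152 ± 12.1 (n = 3) to 250 ± 46 (n = 5) (0.72, SE 0.14, adjusted p = 0.00263). Pcsk1n, whose product inhibits a prohormone convertase, had a log2 fold change of 1.04 (SE 0.269, adjusted p = 0.0129), and the protease inhibitor gene Serpine2 one of 1.00 (SE 0.293, adjusted p = 0.023). Pcsk5, a convertase gene named here after its value was seen, was the 1 lower call, with -0.88 (SE 0.291, adjusted p = 0.0412). Under morphine Ctsl alone was called, with 1.13 (SE 0.305, adjusted p = 0.0276). Microglia, which express Ctsl, had marker sums that moved in the same direction, as given with Ntrk2, and their part in the Ctsl result was not tested.

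Of 24 dense-core vesicle genes, 0 were called higher and 3 lower with knockdown under saline, where 16.7% of all genes were called, and the median of the 24 was -0.28 against 0.02 over all genes. The 3 were Ptprn2, which encodes a vesicle membrane protein, with a log2 fold change of -0.82 (SE 0.2, adjusted p = 0.00916), and the vesicle biogenesis genes Vps50, with -0.72 (SE 0.162, adjusted p = 0.00616), and Ccdc186, with -0.70 (SE 0.18, adjusted p = 0.0122). Under morphine 1 of 24 was called, Cadps2, whose product primes dense-core vesicles for release. Cadps2 fell from 55.5 ± 6.94 (n = 4) to 31.2 ± 9.14 (n = 4) normalized CPM (log2 fold change -0.84, SE 0.187, adjusted p = 0.012), in the same comparison as Chga. The granin-binding Scg3 was 170 ± 14 (n = 3), 187 ± 2.43 (n = 4), 205 ± 21.9 (n = 5) and 182 ± 20 (n = 4) normalized CPM in the 4 groups, in the order Ctrl before Kdm7a-shRNA and saline before morphine within each virus, and was not called.

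Of 22 activity-regulated genes, which share the regulation by neuronal activity known for Bdnf and Vgf, 2 were called higher and 3 lower with knockdown under saline, where 16.7% of all genes were called. Fos fell from 50.3 ± 4.81 (n = 3) to 27.7 ± 6.04 (n = 5) normalized CPM (log2 fold change -0.86, SE 0.287, adjusted p = 0.0419) and Egr2 had a log2 fold change of -1.06 (SE 0.299, adjusted p = 0.0192), both transcription factor genes. Crem, which encodes a modulator of the cyclic AMP response, had 0.79 (SE 0.204, adjusted p = 0.0127), and Gadd45b 0.89 (SE 0.267, adjusted p = 0.0255). The list's median was -0.30, while Bdnf was at 0.32 and Vgf at -0.10 in that comparison. Under morphine edgeR called 0 of the 22, DESeq2 called 2, and 2 had an unadjusted p under 0.05.

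**Figure D4:**
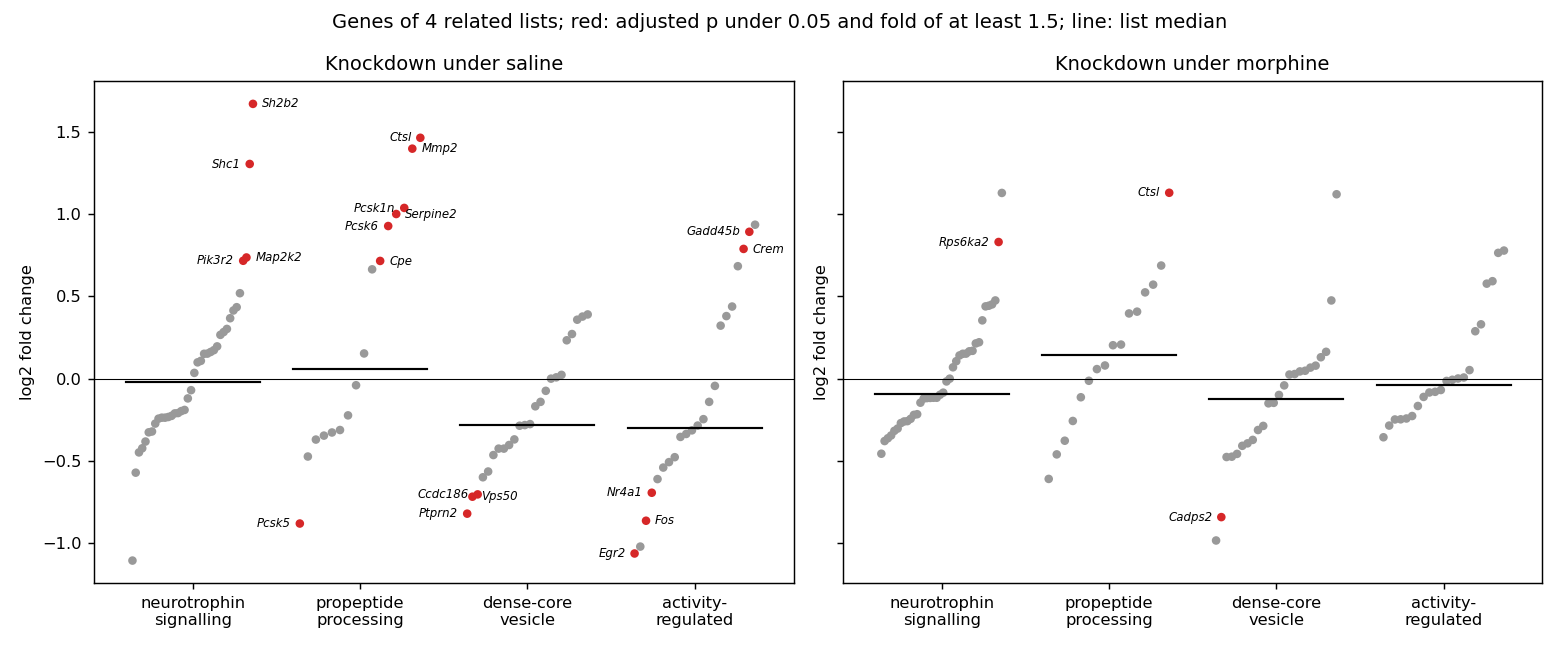
Log2 fold change of each tested gene of the 4 related lists for knockdown under saline (left) and under morphine (right), sorted within each list. Red points with names are called genes and black lines are list medians; under saline the medians were -0.02 for neurotrophin signalling, 0.06 for propeptide processing, -0.28 for dense-core vesicle and -0.30 for activity-regulated genes.

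Beyond the group means, some of the members varied together from mouse to mouse and others did not. Correlations were taken over log2 CPM deviations from the group means in 16 mice, as a description, since all genes of a mouse share its library, depth and tissue piece. Bdnf deviated with Vgf (Pearson r = 0.7), Scg2 (0.69), Chgb (0.68) and Sort1 (0.63). Ntrk2 deviated against Scg2 (-0.77), Chgb (-0.66), Bdnf (-0.54), Chga (-0.54) and its fellow receptor gene Ntrk3 (-0.52). Ntf3 had r of at most 0.35 with any member, and Chga had 0.06 with Bdnf, 0.01 with Ntrk3 and 0.13 with Sort1.

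Among 7817 genes with a symbol and a mean of at least 10 normalized CPM, the 3 whose deviations were most like those of Bdnf included Ensa (r = 0.923) and Slc12a5 (0.918), the latter the gene of the neuronal chloride exporter. For Ntrk2 the 3 were Cnpy2 (0.961), Dbi (0.947) and Sdc4 (0.94). For Ntrk3 they were Grm5 (0.955), the gene of a glutamate receptor, Taok3 (0.887) and Rad23b (0.876), and for Sort1 Gm20695 (0.879), Cep170b (0.878) and Sytl2 (0.876). Chga was most like Kcnj9 (0.913), Ecsit (0.834) and Lin7c (0.821), and Chgb like Spock1 (0.934), Pim2 (0.917) and 1110008P14Rik (0.915). For Scg2 they were Tcaf1 (0.953), Fdps (0.944) and Mrps36 (0.942), for Vgf Wnt7b (0.933), Ogfod1 (0.884) and Fbxw7 (0.871), and for Ntf3 Rbmx (0.853), Zmym4 (0.801) and Slmap (0.762).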

How the data were processed

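Bulk mPFC RNA of 16 mice was measured by Nanopore cDNA-PCR sequencing. In the authors' methods, short, low-quality and ribosomal reads were dropped, and full-length reads were clustered on mm10 with minimap2, Pinfish and cDNA Cupcake, and then counted per gene. The submitters' processing notes name minimap2 and edgeR 3.8.6. The deposited counts are reads per gene without normalization, and the authors made the deposited CPM from them by each mouse's total. Whether strand was used in counting is not given in the sources used here. Annotated genes overlap Bdnf, Ntrk2, Ntrk3 and Sort1, some antisense, and none of these is in the table.

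The tests used edgeR 4.0.16 (with limma 3.58.1, R 4.3.3). Genes were filtered with filterByExpr, normalized with TMM factors and tested with the quasi-likelihood test in 1 fit of 4 groups, adjusted by Benjamini-Hochberg over 18826 genes, of which 4382 are loci that the authors assembled. Standard errors are the log2 fold change over the square root of F. The 6 comparisons were morphine under each virus, knockdown under each treatment, their interaction, and the average of both knockdown effects. Alternatives were the compared groups alone, no filter, at least 10 counts per mouse, RLE size factors, library size only, DESeq2 1.42.0, the adjusted p alone, a replicate block, each mouse left out and, chosen after the data were seen, the known genes only. Scripts were tested on simulated data beforehand.

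The members, gene lists and markers were chosen with earlier results of these data known. Named genes were the 9 members, Kdm7a, up to 4 called genes with the smallest p per list and comparison, markers beside a result, and the 3 genes most alike to each member, of which 1 is not reported here. Beyond that rule, Pcsk5 and Scg3 were named after their values were seen, as were labelled points in the plot of the lists. Mice are separate animals. Within groups, log2 CPM correlated at 0.951 to 0.981 over 25 pairs and counts differed by more than sampling error (chi-square per degree of freedom 8.33 to 51.2). Reads were amplified by PCR, so counts give counting error only. Positions follow GENCODE vM21 (GRCm38) and promoter sequences RefSeq. Transcripts were not analysed here.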

Additional observations from a re-analysis of the deposited data

Results flagged for a closer look

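In the Kdm7a-shRNA + Morphine group, replicate 3 had an Ntrk2 level of 382 normalized CPM, while the other 3 mice had 250 to 272. Its gap to the nearest mouse, divided by the group's range, was 0.833, above the critical value of 0.829 for 4 mice. It was the 1 such mouse in 27 groups of 4 or 5 mice tested over the 9 genes, and chance flags about 1 group in 20. The same mouse had the highest microglia marker sum of its group, 2954 normalized CPM, against 704.9 to 1328 in the other 3. Without it, Ntrk2 had a log2 fold change of 0.29 with knockdown under morphine.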

How the results depend on the processing

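The calls of Ntrk2 under saline and Chga under morphine held in all 9 alternatives and all 16 fits with 1 mouse left out. Among these, the adjusted p alone dropped only the fold threshold, so no call could be lost there. Fits without a mouse of the groups not compared could change a call only through the shared fit. Counts of called genes moved by over 1.5 times as follows, and the cause was not tested except where fewer genes or mice were used. With at least 10 counts in every mouse they were 697 under morphine and 1852 under saline for knockdown, 1525 for the average and 2 for morphine under knockdown. With the known genes only they were 446, 1419, 1456 and 2. The compared groups alone gave 685 for knockdown under morphine and 0 for morphine under knockdown. DESeq2 called 190 genes for morphine under the control virus, 26 for morphine under knockdown and 227 for the interaction. No filter gave 34 for the interaction, and the adjusted p alone 5190 for the average. Members called for the average were 2 with library size only, with at least 10 counts and with DESeq2, and 4 by the adjusted p alone. Ntf3 could not be fitted with that minimum of 10 counts.

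Same-numbered mice are different animals. Their deviations correlated at r -0.102 to 0.395, with a median of 0.014 over 21 pairs, against a median of -0.0075 for other numbers. The highest values of all pairs, 0.395 and 0.358, were same-numbered, between Kdm7a-shRNA + Saline and Kdm7a-shRNA + Morphine replicates 3 and 4. Pairs of other numbers ran from -0.474 to 0.318. With the replicate block the count for knockdown was 3198 under saline and 1456 under morphine, 3345 for the average, 6 for the interaction and 0 for morphine under knockdown, and members called for the average were 2, as Ntrk3 was then called (-0.689, adjusted p = 0.00457).

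Leaving out 1 mouse gave 0 to 230 genes for morphine under the control virus (230 without Ctrl + Saline replicate 1, 10 without Kdm7a-shRNA + Morphine replicate 2), 568 to 2066 for knockdown under morphine (568 and 913 without Kdm7a-shRNA + Morphine replicates 3 and 1, and 933, 750 and 578 without Ctrl + Morphine replicates 1, 3 and 4), 1424 to 3730 for knockdown under saline (1424 and 2083 without Ctrl + Saline replicates 3 and 2), 0 to 5 for morphine under knockdown and 0 to 266 for the interaction (266 without Ctrl + Saline replicate 1). Members called were 1 to 2 for knockdown under saline and 0 to 3 for the average, with 0 without Kdm7a-shRNA + Morphine replicate 3, 3 without Ctrl + Saline replicate 3, and 2 without Ctrl + Saline replicate 1, Ctrl + Morphine replicate 1 or 4, Kdm7a-shRNA + Saline replicate 4 or Kdm7a-shRNA + Morphine replicate 2 or 4.

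Log2 fold changes that turned in direction were those of members not called in that comparison. For morphine under the control virus, Ntrk2 was -0.02 with RLE and with DESeq2, -0.009 with no filter, -0.024 with at least 10 counts and -0.033 with known genes, Vgf was -0.006 with RLE, -0.004 with DESeq2, -0.013 with at least 10 counts and -0.021 with known genes, and with the block Vgf was -0.071 and Ntf3 0.161. For morphine under knockdown the block gave -0.045 for Bdnf and -0.151 for Vgf. The average of Chgb was -0.057 with library size only and -0.001 with known genes. Leaving out 1 mouse turned, for morphine under the control virus, Bdnf (-0.005 to 0.437), Ntf3 (-0.585 to 0.97), Ntrk2 (-0.07 to 0.056), Ntrk3 (-0.435 to 0.014) and Vgf (-0.12 to 0.236). For knockdown under morphine it turned Bdnf (-0.065 to 0.414) and Chgb (-0.094 to 0.059), and under saline Vgf (-0.329 to 0.122) and Chga (-0.146 to 0.008). For morphine under knockdown it turned Bdnf (-0.081 to 0.219), Ntf3 (-0.618 to 0.024), Ntrk3 (-0.051 to 0.553), Vgf (-0.154 to 0.248) and Scg2 (-0.081 to 0.185), and for the average Vgf (-0.212 to 0.015) and Scg2 (-0.105 to 0.057).

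Ntf3, at 1 to 56 counts, is limited by depth. With 3 to 5 mice a group, a change under 1.5-fold was often within the interval.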
